A study of Mus musculus with 12 samples.

Results

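The brain transcriptome of vehicle-treated mice at 6 h after occlusion of the left middle cerebral artery (MCA) was compared with that of sham mice. The description covers 13171 genes, which are the rows of the deposited table that carry an Ensembl mouse gene identifier and reach a CPM of at least 1 (counts of the gene per 1000000 counts of the mouse) in at least 4 of the 8 samples. The table holds 22036 rows with such an identifier and 31208 rows in all, and 8 of the 12 samples of the series entered the comparison. All 8 samples were labelled as brain of C57BL/6 mice aged 8 weeks, and the study's methods give male mice. In the ischemic group a filament had been placed in the internal carotid artery to block the origin of the MCA, and sterile saline had been injected into the cerebral ventricle on the day before surgery. No injection, hemisphere or brain region is given for the sham samples, so that ischemia and the injection cannot be told apart in the comparison, nor can any part of the surgery that the sham mice did not share. The region is not given for the sequenced ischemic samples either. For its western blots of ischemic tissue, the paper names cortex, hippocampus and striatum. The samples are numbered 1 to 4 in each group and are named mice here. The labels do not say that each sample is a separate animal, so that p-values measure the spread between these samples.

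The MCA supplies the striatum and much of the lateral cortex, and its occlusion deprives them of oxygen and glucose. In the hours that follow, neurons at the border of the injured tissue depolarize and switch on immediate early genes, cells with misfolded protein make heat shock proteins, and astrocytes, microglia and vessels start the transcription of cytokines, acute-phase proteins and adhesion molecules. Surgery and stroke also raise circulating glucocorticoids, which act on many brain cell types through the glucocorticoid receptor. The genes are described along this sequence, from transcription factors to stress proteins, secreted mediators and the markers of each cell type. In bulk tissue, fewer cells of a type and less RNA per cell cannot be told apart.

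Total counts ranged from 7363426 to 8971103 in the sham mice and from 6815920 to 10677224 in the vehicle mice, so that 3 counts of a gene, taken as the floor of detection, correspond to 0.281 to 0.440 CPM. The tissue carried markers of forebrain and some of other regions. Of the marker lists, 24 of 25 genes of excitatory neurons, 23 of 24 genes of striatal projection neurons, 24 of 25 genes of interneurons, all 24 genes of oligodendrocytes and all 25 genes of astrocytes passed the filter on low values, as did 13 of 25 genes of neurons of the hypothalamus, thalamus, midbrain, cerebellum and olfactory bulb, Agrp and Tcf7l2 among them, whereas Gabra6 and Fat2 of cerebellar granule cells did not. A pair of vehicle mice stood apart. The summed CPM of the excitatory neuron genes was 17900 in vehicle mouse 1 and 6660 to 11236 in the other 7 mice, and limma gave vehicle mouse 1 the lowest of the 8 sample weights (0.277, against 0.845 to 1.91). Ttr, the transthyretin gene of the choroid plexus, measured 2.9, 1.23, 0.815 and 0.987 CPM in the sham mice and 13.8, 1817, 12 and 2.64 CPM in the vehicle mice and is thus high in vehicle mouse 2. Of the 15 choroid plexus and ependyma markers, 9 did not pass the filter, Folr1 and Kl among them. The part of these libraries in the results was not tested beyond leaving each of them out. The share of counts on mitochondrially encoded genes was 1.29 to 2.10% in the sham mice, 0.909% in vehicle mouse 3 and 1.98 to 2.06% in the other vehicle mice.

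A total of 151 genes were higher and 25 were lower in the vehicle mice where the limits were an edgeR adjusted p under 0.05 and a change of 1.5-fold or more, which is 1.15% and 0.19% of the genes described. A gene is said to have risen or fallen where it met these limits. By the unadjusted p and the same fold limit, 655 genes were higher (4.97%) and 363 were lower (2.76%). The 8 CPM values of a gene did not overlap between the groups in 478 genes that were higher (3.63%) and in 688 that were lower (5.22%) in the vehicle mice, and the median log2 fold change of all genes was -0.013. All but 4 of the 151 higher genes and all 25 lower genes were among those without overlap. All 176 called genes are annotated as protein coding. Of the higher genes, 22 had reached 1 CPM in all 4 vehicle mice and in no sham mouse, and 4 of the lower genes had done so in the sham mice alone. Such genes passed the filter through a single group and had to differ.

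The calls depended on the mice in the fit. When each mouse was left out in turn, the count of higher genes lay between 67 and 239 and that of lower genes between 5 and 57. Without sham mice 1, 2, 3 and 4, 74, 69, 67 and 73 genes were higher and 8, 9, 5 and 7 were lower. Without vehicle mouse 1 the counts were 239 and 57, and without vehicle mouse 3 they were 102 and 11. In all 8 of these fits, 54 of the 151 higher genes and 3 of the 25 lower genes (Gkn3, P2ry13 and Ptch1) kept their call. Genes whose call was lost without a mouse are given with the highest adjusted p of these fits and the mouse left out. These fits hold 1 mouse less, so that a call can be lost with the smaller group alone. The mouse named is not shown to carry the call.

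**Figure D1:**
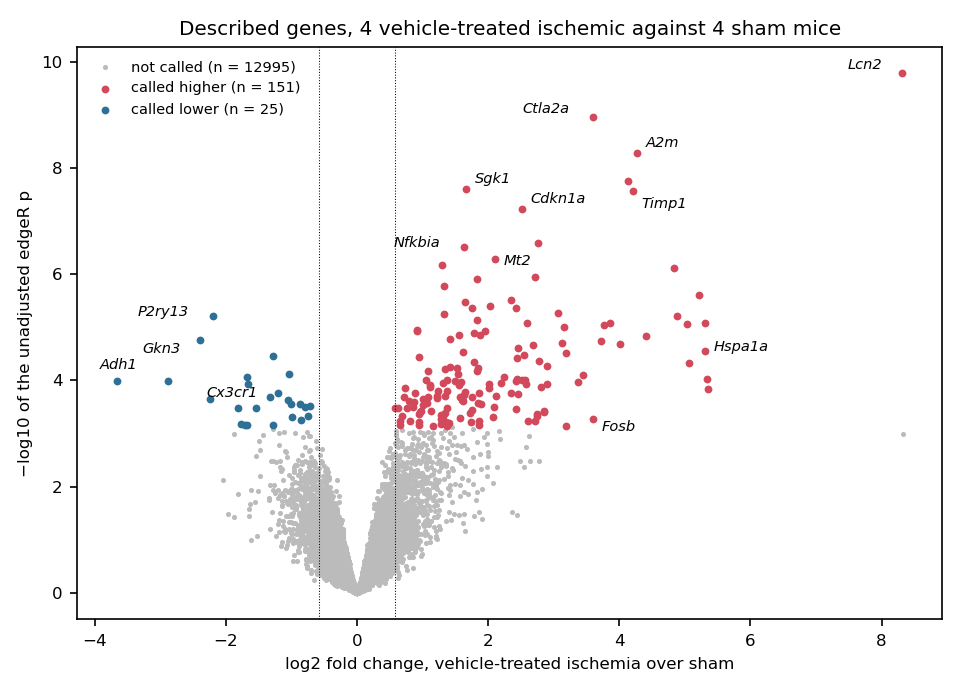
Unadjusted edgeR p (as −log10, y axis) against the log2 fold change of vehicle-treated ischemia over sham (x axis) for the 13171 genes described, with the 151 genes called higher in red, the 25 called lower in blue and the fold limit of 1.5 as dotted lines. Lcn2, with a log2 fold change of 8.30, stands to the right of the other called genes, and the uncalled point beside it is Ttr at 8.32, which rests on vehicle mouse 2.

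Among 25 tested immediate early genes (transcription factors of the AP-1, Egr, Nr4a and Klf families and other genes switched on within minutes of synaptic activity or injury), 5 rose, none fell and the median log2 fold change was 1.20. By the unadjusted p 14 were higher. Fosb (ENSMUSG00000003545, chr7:19302696-19310051, minus strand), an AP-1 subunit, measured 14.2, 12.6, 10.3 and 18.6 CPM in the sham mice and 36.4, 194, 418 and 15.3 CPM in the vehicle mice (log2 fold change 3.60 ± 0.78 SE, edgeR adjusted p = 0.0402). Its level was high in vehicle mice 2 and 3, while vehicle mouse 4 lay within the sham range. Atf3, a stress-induced factor of the same leucine zipper class, measured 0.659, 0, 1.22 and 0 CPM in the sham mice and 2.25, 18.6, 46.2 and 6.75 CPM in the vehicle mice (log2 fold change 5.36 ± 1.00 SE, edgeR adjusted p = 0.0182). Maff, a small Maf protein, measured 0, 0.78, 2.58 and 0.74 CPM in the sham mice and 8.8, 3.89, 8.96 and 5.13 CPM in the vehicle mice (log2 fold change 2.75 ± 0.59 SE, edgeR adjusted p = 0.0366). All 4 vehicle values of Atf3 and of Maff were above the sham values. Csrnp1, a nuclear protein induced by axin, rose from a range of 1.45 to 6.29 CPM to one of 7.63 to 23.9 CPM (log2 fold change 1.86 ± 0.42 SE, edgeR adjusted p = 0.0486), and Ier3, an immediate early gene of cell survival, measured 11.8 to 15.3 CPM in the sham mice and 20.04 to 42.3 CPM in the vehicle mice (log2 fold change 1.23 ± 0.23 SE, edgeR adjusted p = 0.0193). When each mouse was left out in turn, the call held in 5 of 8 for Atf3 (adjusted p up to 0.0809, without sham mouse 2), in 4 of 8 for Maff (adjusted p up to 0.133, without sham mouse 2) and in 3 of 8 for Ier3 (adjusted p up to 0.0824, without sham mouse 4). The same limits were met in 2 of 8 for Fosb (adjusted p up to 0.142, without sham mouse 3) and in 2 of 8 for Csrnp1 (adjusted p up to 0.159, without sham mouse 1). The risen genes of the list numbered 0 without sham mouse 1 or 4 and 8 with DESeq2.

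The best-known members of the group were not called, and the vehicle mice differed among themselves. Fos, the partner of Jun in AP-1, measured 25.1, 29.2, 48.3 and 51.2 CPM in the sham mice and 10.1, 138, 371 and 31.5 CPM in the vehicle mice (log2 fold change 1.87 ± 0.76 SE, edgeR adjusted p = 0.301). Npas4, which neurons switch on through calcium entry, measured 22.2, 17.6, 28 and 22 CPM in the sham mice and 2.44, 65.3, 400.1 and 9.1 CPM in the vehicle mice (log2 fold change 2.44 ± 1.02 SE, edgeR adjusted p = 0.313). Nr4a1, an orphan nuclear receptor, measured 43.4, 46.8, 77.4 and 105 CPM in the sham mice and 28.1, 166, 389.5 and 31.8 CPM in the vehicle mice (log2 fold change 1.20 ± 0.66 SE, edgeR adjusted p = 0.459). In each of these genes, vehicle mice 2 and 3 were above all sham mice, and vehicle mouse 1 was below all of them. Egr1 was split between the vehicle mice in a like way, with 97.7, 102, 91.8 and 96.2 CPM in the sham mice and 27.7, 127, 268 and 24.9 CPM in the vehicle mice (log2 fold change 0.23 ± 0.56 SE, edgeR adjusted p = 0.901). The summed CPM of the list was 427 to 672 in the sham mice and 369, 1287, 2992 and 439 in vehicle mice 1 to 4. The median coefficient of variation over the list was 33.7% among sham mice and 85.5% among vehicle mice, against 17% and 23% over all genes. Jun, Jund and Egr3 had adjusted p values of 0.111, 0.111 and 0.0943, and Jund alone of these did not overlap between the groups.

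The promoters of 4 of these genes are shown because TGACG, the core of the cyclic AMP response element that calcium and cyclic AMP signalling act through, lies in their 250 bases upstream of the RefSeq start (GRCm38.p6, 5′ to 3′ on the strand of the gene). The core, read on either strand, stands in capitals. The stretches are chr12:85473740-85473839 for Fos (plus strand), chr7:19310046-19310145 for Fosb (minus strand), chr19:4990072-4990171 for Npas4 (minus strand) and chr15:101266596-101266845 for Nr4a1 (plus strand).
Fos: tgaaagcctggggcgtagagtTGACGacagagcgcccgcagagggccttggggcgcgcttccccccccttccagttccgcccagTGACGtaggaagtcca
Fosb: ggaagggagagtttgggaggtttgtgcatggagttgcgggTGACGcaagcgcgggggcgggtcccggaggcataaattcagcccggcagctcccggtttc
Npas4: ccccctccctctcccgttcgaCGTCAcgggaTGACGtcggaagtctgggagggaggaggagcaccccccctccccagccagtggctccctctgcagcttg
Nr4a1: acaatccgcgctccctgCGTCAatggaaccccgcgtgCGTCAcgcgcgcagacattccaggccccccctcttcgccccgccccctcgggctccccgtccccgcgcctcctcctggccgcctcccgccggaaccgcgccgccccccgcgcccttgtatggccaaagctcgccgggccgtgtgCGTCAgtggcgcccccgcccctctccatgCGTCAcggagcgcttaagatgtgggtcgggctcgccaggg
The core was found in 13 of the 21 list members with a RefSeq promoter (61.9%), in 41 of the 120 higher genes with one (34.2%), in 26.6% of all described genes and in 17.9% of all RefSeq promoters of this length. A match is a description of the letters and was not tested as a site.

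**Figure D2:**
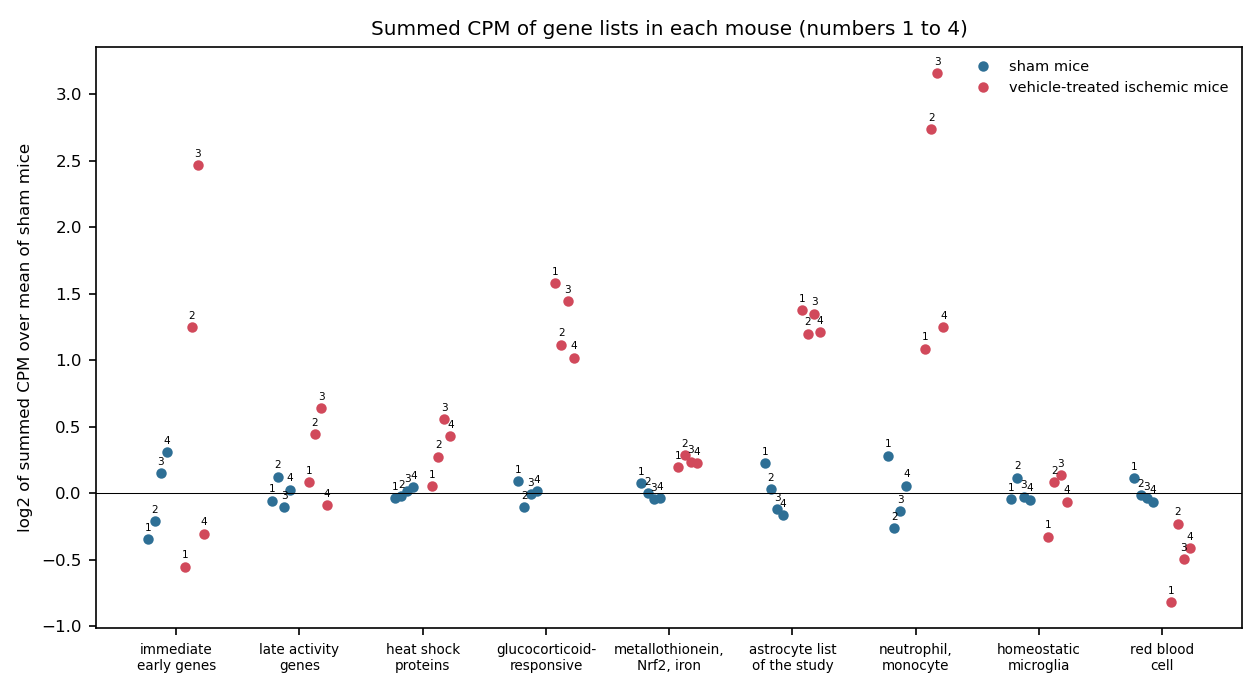
Summed CPM of 9 gene lists in each mouse (y axis, log2 of the sum over the mean of the sham mice; x axis, list), with sham mice in blue, vehicle mice in red and the mouse number above each point. The sum of the immediate early genes is spread over the vehicle mice (369 to 2992 CPM), whereas the 4 vehicle sums of the glucocorticoid-responsive genes (814 to 1202 CPM) lie above the 4 sham sums (373 to 428 CPM).

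Inhibitors of the mitogen-activated protein (MAP) kinases, which the early response induces as feedback, held 2 risen genes of 16, with a median log2 fold change of 0.43. Errfi1, an inhibitor of the epidermal growth factor receptor, measured 32.4, 16.9, 34.9 and 28.6 CPM in the sham mice and 47.9, 106, 206 and 82 CPM in the vehicle mice (log2 fold change 2.01 ± 0.37 SE, edgeR adjusted p = 0.0157). Dusp5, a phosphatase of nuclear ERK, measured 1.58, 1.0, 1.22 and 0.987 CPM in the sham mice and 4.12, 3.5, 6.1 and 2.05 CPM in the vehicle mice (log2 fold change 1.76 ± 0.36 SE, edgeR adjusted p = 0.0316). The vehicle values of both genes lay above the sham values, with vehicle mouse 3 the highest in each. Dusp1, the phosphatase most often used as an early gene, was not called and measured 8.7, 7.13, 17.9 and 16.2 CPM in the sham mice and 8.62, 39.9, 88.5 and 6.46 CPM in the vehicle mice (edgeR adjusted p = 0.316). In the edgeR fits without 1 mouse, the call held in 4 of 8 for Errfi1 (adjusted p up to 0.0695, without sham mouse 2) and in 2 of 8 for Dusp5 (adjusted p up to 0.117, without sham mouse 4). For the list as a whole, the risen genes were 0 without any 1 of the sham mice.

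Of 23 tested late activity genes, most of which encode secreted and synaptic proteins made after the transcription factors, 6 rose, none fell and the median log2 fold change was 1.09. Nptx2, a neuronal pentraxin that clusters AMPA receptors, measured 6.73, 3.9, 4.75 and 5.8 CPM in the sham mice and 29.6, 55.4, 91.6 and 11 CPM in the vehicle mice (log2 fold change 3.18 ± 0.50 SE, edgeR adjusted p = 0.00606). Ptgs2, the inducible cyclooxygenase, measured 2.64, 3.68, 2.72 and 4.32 CPM in the sham mice and 5.53, 39.9, 70.1 and 5.58 CPM in the vehicle mice (log2 fold change 3.19 ± 0.72 SE, edgeR adjusted p = 0.0491). Vgf, a precursor of neuropeptides, measured 192, 177, 152 and 144 CPM in the sham mice and 271, 398, 500.2 and 242 CPM in the vehicle mice (log2 fold change 1.12 ± 0.21 SE, edgeR adjusted p = 0.0169). In these genes, vehicle mice 2 and 3 were the highest and vehicle mice 1 and 4 were still above the sham mice. Gadd45b and Gadd45g, which promote active DNA demethylation, rose with log2 fold changes of 1.60 ± 0.32 and 2.43 ± 0.50 (SE; edgeR adjusted p = 0.0242 and 0.0309), and Gadd45g, which like Gadd45b is neither secreted nor synaptic, reached 393 CPM in vehicle mouse 3 against 24.4 to 35.5 CPM in the sham mice. The sixth risen gene, the cell cycle inhibitor Cdkn1a, is described with the glucocorticoid-responsive genes. Bdnf, the neurotrophin, measured 51.4, 53.8, 49.7 and 62.7 CPM in the sham mice and 85.2, 196, 225 and 62.8 CPM in the vehicle mice, without overlap, and its adjusted p of 0.0599 missed the threshold. Scg2, a granin of dense-core vesicles, measured 153, 157, 161 and 177 CPM in the sham mice and 169, 500.4, 474 and 209 CPM in the vehicle mice (edgeR adjusted p = 0.111). Leaving out 1 mouse at a time, the call held in all 8 for Nptx2, in 5 of 8 for Vgf (adjusted p up to 0.0786, without sham mouse 3) and in 3 of 8 for Gadd45g (adjusted p up to 0.12, without sham mouse 1). A call was made in 2 of 8 for Ptgs2 (adjusted p up to 0.159, without sham mouse 1) and in 2 of 8 for Gadd45b (adjusted p up to 0.0951, without sham mouse 2). The list count of risen genes came to 2 without sham mouse 2, 3 or 4.

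Heat shock proteins and their cochaperones held 5 risen genes of 27, no fallen gene and a median log2 fold change of 0.38. Hspa1a (ENSMUSG00000091971, chr17:34969190-34972156, minus strand), an inducible Hsp70, measured 4.35, 5.24, 5.7 and 4.44 CPM in the sham mice and 9.08, 189, 449 and 123 CPM in the vehicle mice (log2 fold change 5.31 ± 0.83 SE, edgeR adjusted p = 0.0057). Hspa1b (ENSMUSG00000090877, chr17:34956436-34959238, minus strand), its neighbour, measured 0.396, 0.223, 1.09 and 0.617 CPM in the sham mice and 1.4, 29.8, 32.4 and 12.6 CPM in the vehicle mice (log2 fold change 5.06 ± 0.84 SE, edgeR adjusted p = 0.00856). Each was highest in vehicle mouse 3 and lowest, though above the sham range, in vehicle mouse 1. The genes are near-identical copies, and how the authors' counting divided reads between them is not given, so that their separate values are uncertain. Hspb1, the small heat shock protein Hsp27 of reactive astrocytes and stressed neurons, measured 1.98, 3.79, 3.12 and 1.6 CPM in the sham mice and 8.52, 43.4, 52.8 and 8.51 CPM in the vehicle mice (log2 fold change 3.44 ± 0.60 SE, edgeR adjusted p = 0.0131). Hsph1, the Hsp110 exchange factor of Hsp70, measured 292, 347, 263 and 296 CPM in the sham mice and 462, 475, 678 and 645 CPM in the vehicle mice (log2 fold change 0.95 ± 0.15 SE, edgeR adjusted p = 0.00717). Dnajb1, the Hsp40 partner, measured 9.63, 9.7, 11.3 and 11 CPM in the sham mice and 18.5, 25.6, 69 and 21.3 CPM in the vehicle mice (log2 fold change 1.72 ± 0.36 SE, edgeR adjusted p = 0.0335). Across the 8 fits with a mouse removed, the call held in all 8 for Hspa1a and Hsph1, in 7 of 8 for Hspa1b (adjusted p up to 0.0529, without sham mouse 2) and in 5 of 8 for Hspb1 (adjusted p up to 0.06, without sham mouse 4). Significance and fold were kept in 4 of 8 for Dnajb1 (adjusted p up to 0.12, without sham mouse 1). The count of risen genes in the list was 3 without any 1 of the sham mice and 10 without vehicle mouse 1.

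Other abundant chaperones were not called in the fit of all 8 mice. Hspa8, the constitutive Hsp70, measured 2254, 2152, 2368 and 2409 CPM in the sham mice and 2487, 3057, 3966 and 3164 CPM in the vehicle mice, without overlap between the groups (log2 fold change 0.50 ± 0.13 SE, edgeR adjusted p = 0.0895). Hsp90ab1, the constitutive Hsp90, measured 883 to 1006 CPM in the sham mice and 1099.5 to 1326 CPM in the vehicle mice, also without overlap (log2 fold change 0.38 ± 0.11 SE, edgeR adjusted p = 0.125). Hsp90aa1, its inducible relative, measured 1283 to 1459 CPM in the sham mice and 1375 to 1694 CPM in the vehicle mice (log2 fold change 0.20 ± 0.11 SE, edgeR adjusted p = 0.455). None of these passed the fold limit and the adjusted threshold. The mitochondrial chaperonin Hspd1 gave a log2 fold change of 0.21 ± 0.15 (SE; edgeR adjusted p = 0.582).

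Upstream sequences of 4 of the risen heat shock genes are shown for the heat shock element, the site of Hsf1, searched as GAANNTTC or TTCNNGAA in the 250 bases before the RefSeq start (GRCm38.p6, 5′ to 3′ on the strand of the gene, element in capitals). They are chr17:34972157-34972306 for Hspa1a (minus strand), chr17:34959239-34959388 for Hspa1b (minus strand), chr5:135887769-135887868 for Hspb1 (plus strand) and chr5:149636337-149636436 for Hsph1 (minus strand).
Hspa1a: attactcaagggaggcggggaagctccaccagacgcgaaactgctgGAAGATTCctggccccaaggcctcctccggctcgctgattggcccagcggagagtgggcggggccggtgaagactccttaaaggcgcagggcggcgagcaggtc
Hspa1b: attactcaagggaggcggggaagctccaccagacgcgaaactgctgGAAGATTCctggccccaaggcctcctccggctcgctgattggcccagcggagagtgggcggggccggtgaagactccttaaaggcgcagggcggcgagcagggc
Hspb1: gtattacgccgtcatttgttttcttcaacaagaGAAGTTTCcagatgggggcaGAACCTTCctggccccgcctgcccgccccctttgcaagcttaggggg
Hsph1: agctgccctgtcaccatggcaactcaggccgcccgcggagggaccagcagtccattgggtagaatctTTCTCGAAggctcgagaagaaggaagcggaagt
The upstream sequences of Hspa1a and Hspa1b were identical at 247 of 250 bases. The element was found in 7 of 22 list members with a promoter (31.8%), in 17 of the 120 higher genes (14.2%), in 10.2% of described genes and in 12.9% of all RefSeq promoters. It was not found upstream of Dnajb1, the fifth risen gene of the list. Shares of the same size were found in other lists, 33.3% for oligodendrocyte precursor genes (4 of 12 promoters), 29.4% for homeostatic microglia (5 of 17) and 28.6% for interferon-induced and MHC class I genes (6 of 21).

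In the unfolded protein and integrated stress response, 2 of 26 genes rose and none fell, with a median log2 fold change of 0.38. Hspa5, the chaperone BiP of the endoplasmic reticulum, measured 108, 94.6, 148 and 157 CPM in the sham mice and 166, 312, 291 and 283 CPM in the vehicle mice (log2 fold change 1.09 ± 0.21 SE, edgeR adjusted p = 0.0227). Ddit4, an inhibitor of mTOR complex signalling that also responds to hypoxia and glucocorticoids, measured 33.4, 33.6, 39.9 and 44 CPM in the sham mice and 103, 75.2, 102 and 88.2 CPM in the vehicle mice (log2 fold change 1.32 ± 0.16 SE, edgeR adjusted p = 0.000662). Vehicle mouse 1 had the lowest Hspa5 value of the vehicle group, just above the highest sham mouse, whereas Ddit4 was raised in all 4 vehicle mice. Ppp1r15a, the phosphatase subunit that restores translation, measured 11.3, 7.13, 10.2 and 9.37 CPM in the sham mice and 12.6, 25, 36.2 and 12.9 CPM in the vehicle mice (edgeR adjusted p = 0.0963). Ddit3, the factor CHOP, measured 42.6 to 55.5 CPM in the sham mice and 54.9 to 90.00 CPM in the vehicle mice (edgeR adjusted p = 0.121), and Atf4, the factor at the centre of the integrated response, gave 0.46 ± 0.23 (log2 fold change, SE; edgeR adjusted p = 0.397). With any 1 mouse removed, the call held in all 8 for Ddit4 and in 3 of 8 for Hspa5 (adjusted p up to 0.0913, without sham mouse 1). The risen genes of the list numbered 1 without sham mouse 1, 2 or 3 or vehicle mouse 2 or 3, 5 without vehicle mouse 1, 5 with DESeq2 and 5 with limma voom.

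The glucocorticoid-responsive genes had 11 of 19 tested members risen, the largest share among lists with over 8 tested genes, with none fallen and a median log2 fold change of 1.56. In 13 of the 19 the groups did not overlap, and 2 of the 11 had passed the filter through the vehicle mice alone. Sgk1, a kinase that glucocorticoids induce in glia and vessels, measured 58.8, 45.3, 45 and 59.3 CPM in the sham mice and 158, 166, 167 and 155 CPM in the vehicle mice (log2 fold change 1.67 ± 0.14 SE, edgeR adjusted p = 2.23e-05). Tsc22d3, the leucine zipper protein GILZ, measured 45.5, 45.4, 40.6 and 47.2 CPM in the sham mice and 87, 75.1, 81.9 and 83.5 CPM in the vehicle mice (log2 fold change 0.91 ± 0.13 SE, edgeR adjusted p = 0.00301). The vehicle mice were close to each other in both genes, with no overlap with the sham mice. Nfkbia, the inhibitor of NF-kappa B that is also a target of NF-kappa B itself, measured 11.5, 8.81, 12.2 and 11.8 CPM in the sham mice and 31.9, 32.2, 39.3 and 30.5 CPM in the vehicle mice (log2 fold change 1.63 ± 0.17 SE, edgeR adjusted p = 0.000157). Cdkn1a, the cell cycle inhibitor p21, measured 20.04, 20.5, 16 and 13.9 CPM in the sham mice and 133, 101, 97.1 and 64.1 CPM in the vehicle mice (log2 fold change 2.52 ± 0.23 SE, edgeR adjusted p = 4.03e-05). Arrdc2 and Zbtb16 rose by log2 fold changes of 1.84 ± 0.32 and 1.53 ± 0.27 (SE; edgeR adjusted p = 0.0115 and 0.0125). Plin4, a lipid droplet coat protein, measured 0, 0.111, 0.543 and 0.493 CPM in the sham mice and 7.31, 2.85, 2.49 and 5.87 CPM in the vehicle mice (log2 fold change 4.01 ± 0.61 SE, edgeR adjusted p = 0.0044). The list also holds Ddit4, Errfi1 and Lcn2, which are described with their other lists. Over the fits that dropped a mouse, the call held in all 8 for Sgk1, Tsc22d3, Nfkbia, Cdkn1a and Plin4, in 6 of 8 for Arrdc2 (adjusted p up to 0.0526, without sham mouse 1) and in 6 of 8 for Zbtb16 (adjusted p up to 0.0551, without sham mouse 4). For the list as a whole, the risen genes were 7 without sham mouse 4.

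Some glucocorticoid-responsive genes were raised in part of the vehicle mice. Fkbp5, a cochaperone of the receptor, measured 14.5, 22.1, 16.6 and 16.8 CPM in the sham mice and 105, 18.3, 22.5 and 86 CPM in the vehicle mice (log2 fold change 1.77 ± 0.48 SE, edgeR adjusted p = 0.111), with vehicle mice 1 and 4 far above the others. Klf9 measured 74.4, 73.9, 64.4 and 68.8 CPM in the sham mice and 362, 91.7, 90.8 and 69.2 CPM in the vehicle mice (log2 fold change 1.16 ± 0.43 SE, edgeR adjusted p = 0.253), far above the other mice in vehicle mouse 1, while vehicle mice 2 and 3 were also above the sham mice. Vehicle mouse 1, which had the lowest Fos, Npas4 and Nr4a1 values of the 8 mice, thus had the highest Fkbp5 and Klf9 values. Nr3c1, the receptor itself, measured 43.4 to 61.6 CPM in the sham mice and 20.5 to 45.6 CPM in the vehicle mice (edgeR adjusted p = 0.297).

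Per1, a clock gene with a glucocorticoid response, was the risen member among 19 clock genes and measured 24.9, 18.2, 17.5 and 12.2 CPM in the sham mice and 41.9, 47, 89.5 and 35.2 CPM in the vehicle mice (log2 fold change 1.59 ± 0.29 SE, edgeR adjusted p = 0.0149). Nfil3, a repressor in the clock's output loop, measured 2.64, 2.12, 3.8 and 3.7 CPM in the sham mice and 5.24, 9.2, 20.2 and 6.31 CPM in the vehicle mice, without overlap (edgeR adjusted p = 0.0552). Dbp, an activator of that loop, measured 42.7, 37.7, 34 and 28.2 CPM in the sham mice and 36.1, 12.6, 12.9 and 14.2 CPM in the vehicle mice (edgeR adjusted p = 0.25), and Nr1d1, the repressor Rev-erb alpha, gave a log2 fold change of -0.42 ± 0.18 (SE; edgeR adjusted p = 0.317). The time of day at which tissue was taken is not given in the labels, and its part was not tested. When each mouse was left out in turn, the call held in 5 of 8 for Per1 (adjusted p up to 0.0678, without sham mouse 3). The list count of risen genes came to 0 without sham mouse 2, 3 or 4, 2 without vehicle mouse 1 or 4, 2 with DESeq2, 2 with limma voom and 2 with no filter on low counts. In the other direction, 1 clock gene was called lower with DESeq2, with limma voom and without vehicle mouse 1.

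Of 25 metallothionein, Nrf2 and iron genes 4 rose and none fell, with a median log2 fold change of 0.18. Mt1 (ENSMUSG00000031765, chr8:94179082-94180327, plus strand), a zinc-binding metallothionein, measured 399.6, 394, 367 and 375 CPM in the sham mice and 966, 707, 845 and 1145 CPM in the vehicle mice (log2 fold change 1.29 ± 0.14 SE, edgeR adjusted p = 0.000318). Mt2 (ENSMUSG00000031762, chr8:94172664-94173568, plus strand), the neighbouring copy, measured 88.2, 72.3, 81.5 and 79.9 CPM in the sham mice and 390.2, 208, 265 and 486 CPM in the vehicle mice (log2 fold change 2.10 ± 0.23 SE, edgeR adjusted p = 0.000252). Vehicle mouse 4 had the highest level of each, and no vehicle value overlapped the sham values. Since they are similar in sequence, reads may have been split between them. Hmox1, the heme oxygenase that degrades heme and belongs to the Nrf2 targets, measured 1.85, 1.45, 0.951 and 1.23 CPM in the sham mice and 4.68, 6.22, 9.83 and 8.51 CPM in the vehicle mice (log2 fold change 2.43 ± 0.32 SE, edgeR adjusted p = 0.00147). Srxn1, the sulfiredoxin that repairs peroxiredoxins, measured 53, 44.5, 56.8 and 49 CPM in the sham mice and 102, 92.2, 88.1 and 90.2 CPM in the vehicle mice (log2 fold change 0.91 ± 0.13 SE, edgeR adjusted p = 0.00309). Slc40a1, the iron exporter ferroportin, measured 1.9 to 3.4 CPM in the sham mice and 0.656 to 1.81 CPM in the vehicle mice, lower without overlap (edgeR adjusted p = 0.225). Txn1 and Prdx1, thioredoxin and a peroxiredoxin, were also lower without overlap, with log2 fold changes of -0.29 and -0.26 (edgeR adjusted p = 0.404 and 0.47). In the edgeR fits without 1 mouse, the call held in all 8 for Mt1, Mt2, Hmox1 and Srxn1. 

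The upstream 250 bases of Mt2 (chr8:94172368-94172617, GRCm38.p6, plus strand) are shown because they match TGCNCNC 5 times. These letters were taken for the metal response element, the site of Mtf1, with any base at N. They were searched on either strand and stand in capitals. No match was tested as a site of Mtf1.
Mt2: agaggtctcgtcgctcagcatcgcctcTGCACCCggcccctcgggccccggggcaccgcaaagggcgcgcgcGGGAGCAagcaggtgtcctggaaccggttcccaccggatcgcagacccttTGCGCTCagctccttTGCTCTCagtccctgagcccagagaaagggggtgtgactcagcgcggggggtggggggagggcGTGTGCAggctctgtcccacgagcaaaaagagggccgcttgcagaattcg
This short motif was found in 43.8% of all RefSeq promoters, in 52.5% of described genes and in 54.2% of the higher genes. The upstream sequences of Mt1, Mt3 and Slc30a1 hold it 1 time each, so that Mt2 is the one shown for its count. Mtf1 itself rose and measured 20.4, 16.2, 19 and 20.2 CPM in the sham mice and 33, 48.4, 41 and 25.8 CPM in the vehicle mice (log2 fold change 1.00 ± 0.20 SE, edgeR adjusted p = 0.024). Leaving out 1 mouse at a time, the call held in 2 of 8 for Mtf1 (adjusted p up to 0.0935, without sham mouse 2).

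Hypoxia-inducible and glycolytic genes held 1 risen gene of 35, Slc2a1, and their median log2 fold change was 0.16. By the unadjusted p and the same fold limit 8 of the 35 were higher and 1 was lower, against 4.97% and 2.76% of all genes. Slc2a1, the glucose transporter of the blood-brain barrier, measured 52.5, 36.2, 47.4 and 45.1 CPM in the sham mice and 81.3, 109, 144 and 109 CPM in the vehicle mice (log2 fold change 1.33 ± 0.18 SE, edgeR adjusted p = 0.00182). Slc2a3, the neuronal glucose transporter, measured 53, 57, 59.5 and 58.6 CPM in the sham mice and 96.6, 71.2, 83.7 and 84.7 CPM in the vehicle mice, without overlap (log2 fold change 0.59 ± 0.14 SE, edgeR adjusted p = 0.0583). Vegfa, the endothelial growth factor, measured 5.67, 3.9, 7.2 and 3.7 CPM in the sham mice and 17.6, 5.96, 17.1 and 7.34 CPM in the vehicle mice (log2 fold change 1.28 ± 0.36 SE, edgeR adjusted p = 0.134), high in vehicle mice 1 and 3. Ldha, the lactate dehydrogenase subunit, measured 769, 734, 744 and 774 CPM in the sham mice and 781, 883, 902 and 970.4 CPM in the vehicle mice (log2 fold change 0.26 ± 0.10 SE, edgeR adjusted p = 0.283). Slc16a1 and Slc16a3, monocarboxylate transporters that carry lactate, measured 1.49 to 3.3 CPM in the sham mice and 3.18 to 5.35 CPM in the vehicle mice and 1.19 to 5.16 CPM in the sham mice and 4.53 to 7.84 CPM in the vehicle mice (edgeR adjusted p = 0.309 and 0.186). Pgk1 and Aldoa, glycolytic enzymes, gave log2 fold changes of 0.24 ± 0.13 and 0.11 ± 0.09 (SE), and Hif1a, the oxygen-regulated factor, gave -0.05 ± 0.16. Across the 8 fits with a mouse removed, the call held in all 8 for Slc2a1. The count of risen genes in the list was 4 with DESeq2.

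Among 29 tested p53 targets and cell death genes, Cdkn1a, Fas and Tnfrsf12a rose, none fell and the median log2 fold change was 0.24. Fas, a death receptor, measured 1.19, 1.0, 0.679 and 0.123 CPM in the sham mice and 3.56, 7.51, 7.84 and 7.92 CPM in the vehicle mice (log2 fold change 3.16 ± 0.45 SE, edgeR adjusted p = 0.00274). Tnfrsf12a, the receptor Fn14 for the cytokine TWEAK, measured 23.3, 27.2, 21.5 and 28.9 CPM in the sham mice and 31.7, 59.8, 54 and 53.6 CPM in the vehicle mice (log2 fold change 1.01 ± 0.20 SE, edgeR adjusted p = 0.0276). Vehicle mouse 1 was the lowest vehicle mouse for both genes and remained above the sham mice. Pmaip1, the BH3 protein Noxa, measured 1.05, 0.78, 2.17 and 1.23 CPM in the sham mice and 2.34, 3.37, 2.86 and 2.79 CPM in the vehicle mice (edgeR adjusted p = 0.161). Bbc3, the BH3 protein Puma, gave a log2 fold change of -0.34 ± 0.37 and Trp53 one of -0.49 ± 0.21 (SE; edgeR adjusted p = 0.744 and 0.326). With any 1 mouse removed, the call held in all 8 for Fas and in 1 of 8 for Tnfrsf12a (adjusted p up to 0.111, without sham mouse 3). 

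Only 12 of 31 cytokine and chemokine genes passed the filter on low values, and Il1b, Il6, Tnf, Cxcl1 and Cxcl10 were among those that did not. Ccl2 and Ccl9 rose, and both had passed through the vehicle mice alone. Ccl2, the chemokine that recruits monocytes, had 3 counts in the 4 sham mice together and 114 in the 4 vehicle mice, a ratio of 36.6 per total count with a 95% counting interval of 12.2 to 180.1. Its CPM was 0.132, 0, 0.136 and 0.123 CPM in the sham mice and 1.78, 5.31, 5.48 and 1.47 CPM in the vehicle mice (edgeR adjusted p = 0.00249). Ccl9 measured 0.791, 0.334, 0.136 and 0.617 CPM in the sham mice and 1.78, 2.59, 3.36 and 1.91 CPM in the vehicle mice (log2 fold change 2.35 ± 0.45 SE, edgeR adjusted p = 0.0201). Cxcl12, a chemokine of vessels and meninges, measured 25.6, 22.1, 29.7 and 26.5 CPM in the sham mice and 9.65, 18.3, 15.1 and 9.83 CPM in the vehicle mice, lower without overlap (log2 fold change -0.94 ± 0.22 SE, edgeR adjusted p = 0.0599). Ccl12 and Spp1, which microglia and macrophages make, had adjusted p values of 0.103 and 0.158 and log2 fold changes of 1.25 and 0.97. Over the fits that dropped a mouse, the call held in all 8 for Ccl2 and in 3 of 8 for Ccl9 (adjusted p up to 0.0876, without sham mouse 2). The risen genes of the list numbered 1 without sham mouse 2 or 3 or vehicle mouse 3, 7 without vehicle mouse 1, 4 with DESeq2 and 8 with no filter on low counts. A cytokine or chemokine gene (1 in number) was called lower with DESeq2, with limma voom, with no filter on low counts and without vehicle mouse 2.

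The NF-kappa B list held 4 risen genes of 16, Nfkbia, Nfkbiz, Rel and Cebpd, with none fallen and a median log2 fold change of 0.76, and Cebpd had passed the filter through the vehicle mice alone. Nfkbiz, an atypical inhibitor that is needed for secondary response genes, measured 3.16, 2.23, 2.31 and 4.81 CPM in the sham mice and 5.99, 19.2, 34.4 and 13.6 CPM in the vehicle mice (log2 fold change 2.57 ± 0.46 SE, edgeR adjusted p = 0.0145). Cebpd, a transcription factor of the acute-phase response, measured 0.396, 0.78, 0.543 and 0.493 CPM in the sham mice and 3.28, 2.72, 7.1 and 2.2 CPM in the vehicle mice (log2 fold change 2.77 ± 0.46 SE, edgeR adjusted p = 0.00813). Rel, the subunit c-Rel, measured 0.78 to 1.22 CPM in the sham mice and 1.76 to 3.37 CPM in the vehicle mice (log2 fold change 1.57 ± 0.34 SE, edgeR adjusted p = 0.0388). The values of the groups did not overlap in these genes. Icam1, the adhesion molecule for leukocytes, measured 1.45, 1.56, 0.543 and 0.617 CPM in the sham mice and 1.78, 2.07, 2.74 and 2.2 CPM in the vehicle mice, without overlap (edgeR adjusted p = 0.248). When each mouse was left out in turn, the call held in all 8 for Cebpd, in 5 of 8 for Nfkbiz (adjusted p up to 0.0695, without sham mouse 2) and in 2 of 8 for Rel (adjusted p up to 0.145, without sham mouse 1). For the list as a whole, the risen genes were 2 without sham mouse 1, 2 or 3.

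A list of interleukin 6 family receptors, Stat3 and its targets, which also holds receptors of interleukins 1 and 4, gave 6 risen genes of 19 and a median log2 fold change of 0.79. Of the 6, Socs3, Pim1 and Pim3 are targets of Stat3 and Il4ra, Il1r1 and Il1r2 are receptors of the other interleukins, and Il1r2 had passed the filter through the vehicle mice alone. Socs3, the feedback inhibitor of Stat3 signalling, measured 1.05, 1.0, 2.17 and 1.6 CPM in the sham mice and 7.96, 10.7, 10.3 and 9.54 CPM in the vehicle mice (log2 fold change 2.76 ± 0.28 SE, edgeR adjusted p = 0.000139). The 4 vehicle mice were close to each other and far above the sham mice. Pim1 and Pim3, kinases induced through Stat3, measured 4.35 to 6.33 CPM in the sham mice and 8.22 to 35.5 CPM in the vehicle mice and 11.4 to 26.6 CPM in the sham mice and 33.6 to 75.2 CPM in the vehicle mice (edgeR adjusted p = 0.0271 and 0.0467). Il4ra, the receptor for interleukins 4 and 13, measured 4.22, 1.9, 3.12 and 2.47 CPM in the sham mice and 8.52, 8.55, 11.2 and 11 CPM in the vehicle mice (log2 fold change 1.79 ± 0.26 SE, edgeR adjusted p = 0.00322). Il1r1, the signalling receptor of interleukin 1, measured 3.03 to 4.56 CPM in the sham mice and 6.6 to 11.9 CPM in the vehicle mice (log2 fold change 1.35 ± 0.26 SE, edgeR adjusted p = 0.0222). Il1r2, the decoy receptor carried by neutrophils, had 2 counts in the sham mice together and 74 in the vehicle mice, a ratio of 35.6 (95% counting interval 9.52 to 299.8, edgeR adjusted p = 0.00188). Stat3 measured 17, 14.3, 14 and 11.3 CPM in the sham mice and 35.8, 16.7, 28.5 and 22.4 CPM in the vehicle mice (edgeR adjusted p = 0.0858) and the oncostatin M receptor Osmr 1.05, 0, 0.136 and 0.863 CPM in the sham mice and 1.69, 2.2, 0.747 and 2.49 CPM in the vehicle mice (edgeR adjusted p = 0.253). In the edgeR fits without 1 mouse, the call held in all 8 for Socs3, Il4ra and Il1r2, in 4 of 8 for Pim1 (adjusted p up to 0.106, without sham mouse 3) and in 4 of 8 for Il1r1 (adjusted p up to 0.0861, without sham mouse 1). It held in 2 of 8 for Pim3 (adjusted p up to 0.147, without sham mouse 1). The list count of risen genes came to 3 without sham mouse 1, 2 or 3.

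Of 20 acute-phase and secreted reactive genes, 8 passed the filter and 6 rose, 2 of them having passed through the vehicle mice alone, with a median log2 fold change of 1.88. Lcn2 (ENSMUSG00000026822, chr2:32384633-32388252, minus strand), an iron-siderophore carrier made by reactive astrocytes and neutrophils, had 2 counts in the sham mice together and 798 in the vehicle mice, a ratio of 384 with a 95% counting interval of 106 to 3179 (edgeR adjusted p = 2.79e-06). The vehicle mice measured 24.8, 22.5, 21.5 and 27.3 CPM. Timp1, an inhibitor of matrix metalloproteinases, measured 0.527, 0.557, 0.407 and 0.863 CPM in the sham mice and 7.12, 8.94, 13.1 and 14.8 CPM in the vehicle mice (log2 fold change 4.20 ± 0.35 SE, edgeR adjusted p = 2.23e-05). A2m, alpha-2-macroglobulin, measured 1.45, 1.11, 1.49 and 1.23 CPM in the sham mice and 20.1, 22, 18.5 and 40.2 CPM in the vehicle mice (log2 fold change 4.28 ± 0.31 SE, edgeR adjusted p = 2.04e-05). Lrg1, a glycoprotein of vessels and the acute phase, measured 0.791, 1.0, 1.49 and 1.85 CPM in the sham mice and 8.24, 2.46, 5.85 and 6.46 CPM in the vehicle mice (log2 fold change 2.19 ± 0.40 SE, edgeR adjusted p = 0.0155). Serpina3n, a serine protease inhibitor of reactive astrocytes, measured 4.09, 5.02, 7.33 and 5.43 CPM in the sham mice and 18.3, 8.94, 12.4 and 23.8 CPM in the vehicle mice (log2 fold change 1.57 ± 0.31 SE, edgeR adjusted p = 0.0227). Cp, the copper protein ceruloplasmin, measured 6.59, 7.58, 3.67 and 4.56 CPM in the sham mice and 13.4, 15.7, 14.2 and 15.8 CPM in the vehicle mice (log2 fold change 1.42 ± 0.24 SE, edgeR adjusted p = 0.0101). Serping1 and C4b, complement regulator and component, gave 0.31 ± 0.29 and 0.15 ± 0.30 (log2 fold change, SE) and were not called. Leaving out 1 mouse at a time, the call held in all 8 for Lcn2, Timp1, A2m and Cp, in 5 of 8 for Lrg1 (adjusted p up to 0.0695, without sham mouse 2) and in 5 of 8 for Serpina3n (adjusted p up to 0.0883, without sham mouse 1). 

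These genes were spread less over the vehicle mice than the immediate early genes. The median coefficient of variation of the list was 28.7% among sham mice and 30% among vehicle mice, and vehicle mouse 1 had 7.12 to 24.8 CPM of each of the 6 genes. Over all risen genes the same median was 24.7% among sham mice and 32.3% among vehicle mice, so that a spread of this size is not particular to the list. The difference in spread between the lists was not tested.

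From the 37 reactive astrocyte genes (pan-reactive, A1 and A2) that the study itself used, 26 passed the filter, 12 rose (3 of them having passed through the vehicle mice alone) and none fell, and their median log2 fold change was 1.47. The study looked at the list in these samples, so that its count is not independent evidence of a direction. The pan-reactive, A1 and A2 genes were counted together, and the count says nothing of any of these groups alone. The risen members include Lcn2, Timp1, Hspb1, Ptgs2, Serpina3n and Cp of the lists above. Gfap, the intermediate filament of astrocytes, measured 73.7, 54.5, 46.7 and 34.5 CPM in the sham mice and 256, 91.7, 105 and 184 CPM in the vehicle mice (log2 fold change 1.64 ± 0.31 SE, edgeR adjusted p = 0.0201), highest in vehicle mice 1 and 4. Vim, vimentin, measured 10.02, 10.03, 8.56 and 8.63 CPM in the sham mice and 15, 15.8, 18.7 and 17.5 CPM in the vehicle mice (log2 fold change 0.88 ± 0.17 SE, edgeR adjusted p = 0.0253). Cd44, the hyaluronan receptor, measured 0.132, 0.446, 0 and 0.493 CPM in the sham mice and 2.15, 1.04, 1.74 and 3.37 CPM in the vehicle mice (log2 fold change 2.85 ± 0.60 SE, edgeR adjusted p = 0.0335). Emp1, a membrane protein of the A2 group, measured 1.98, 4.01, 0.136 and 2.71 CPM in the sham mice and 6.56, 19.4, 25.5 and 8.22 CPM in the vehicle mice (log2 fold change 2.74 ± 0.58 SE, edgeR adjusted p = 0.035). Srgn, the proteoglycan core protein serglycin that leukocytes and vessels also make, measured 10.7, 10.7, 8.42 and 8.51 CPM in the sham mice and 16.3, 36.9, 33.9 and 20.8 CPM in the vehicle mice (log2 fold change 1.52 ± 0.26 SE, edgeR adjusted p = 0.0104). Across the 8 fits with a mouse removed, the call held in 6 of 8 for Srgn (adjusted p up to 0.0557, without sham mouse 3), in 5 of 8 for Gfap (adjusted p up to 0.0893, without sham mouse 3) and in 2 of 8 for Vim (adjusted p up to 0.107, without sham mouse 3). The same limits were met in 2 of 8 for Cd44 (adjusted p up to 0.134, without sham mouse 1) and in 2 of 8 for Emp1 (adjusted p up to 0.128, without sham mouse 1). The count of risen genes in the list was 4 without sham mouse 4.

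None of 25 homeostatic astrocyte genes was called, and their median log2 fold change was 0.07. By the unadjusted p, 1 was higher, and 1 was called higher with DESeq2, with limma voom and without vehicle mouse 1. Slc1a2, the main glutamate transporter, measured 629.8, 384, 552 and 493 CPM in the sham mice and 468, 553, 578 and 498 CPM in the vehicle mice (log2 fold change 0.07 ± 0.14, SE). Aqp4, the water channel of the endfeet, gave 0.08 ± 0.21, and Slc1a3, a glutamate transporter, gave -0.01 ± 0.13 on the same scale. Gjb6, connexin 30, measured 24.9, 23.3, 22.8 and 32.7 CPM in the sham mice and 28.6, 47.7, 43.1 and 44.9 CPM in the vehicle mice (edgeR adjusted p = 0.123).

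In 22 tested genes of homeostatic microglia 3 fell and 1 rose, with a median log2 fold change of 0.01. P2ry12 (ENSMUSG00000036353, chr3:59216272-59262871, minus strand), the purine receptor that guides microglial processes, measured 41, 44.6, 44.8 and 52.9 CPM in the sham mice and 18.8, 32.4, 20.2 and 17.6 CPM in the vehicle mice (log2 fold change -1.01 ± 0.20 SE, edgeR adjusted p = 0.0275). P2ry13 (ENSMUSG00000036362, chr3:59207892-59210882, minus strand), its neighbour on the chromosome, measured 4.22, 5.46, 4.75 and 3.95 CPM in the sham mice and 0.749, 1.04, 1.24 and 0.88 CPM in the vehicle mice (log2 fold change -2.19 ± 0.30 SE, edgeR adjusted p = 0.00188). Cx3cr1, the fractalkine receptor, measured 30.5, 23.9, 32 and 17 CPM in the sham mice and 9.93, 14.6, 9.34 and 9.54 CPM in the vehicle mice (log2 fold change -1.21 ± 0.23 SE, edgeR adjusted p = 0.0201). The values of the groups did not overlap in any of them. C1qb, a chain of complement C1q, rose and measured 33.1, 34.9, 39.4 and 31.7 CPM in the sham mice and 51, 54.5, 56.6 and 61.2 CPM in the vehicle mice (log2 fold change 0.72 ± 0.14 SE, edgeR adjusted p = 0.0227). Its partner chains C1qc and C1qa had log2 fold changes of 0.59 ± 0.15 and 0.42 ± 0.26 (SE; edgeR adjusted p = 0.0834 and 0.502). With any 1 mouse removed, the call held in all 8 for P2ry13, in 4 of 8 for Cx3cr1 (adjusted p up to 0.0884, without sham mouse 3) and in 2 of 8 for P2ry12 (adjusted p up to 0.111, without sham mouse 4). A call was made in 1 of 8 for C1qb (adjusted p up to 0.105, without sham mouse 4). The fallen genes of the list numbered 1 without sham mouse 1, 2 or 3 or vehicle mouse 3. The risen microglial genes numbered 0 to 2 in the fits without 1 mouse and 2 with DESeq2 and with limma voom.

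The other surface genes of the list lay between these. Gpr34, a lysophospholipid receptor, measured 4.62, 5.24, 3.12 and 5.8 CPM in the sham mice and 0.562, 3.5, 1.62 and 1.03 CPM in the vehicle mice (log2 fold change -1.47 ± 0.45 SE, edgeR adjusted p = 0.165), and Siglech, a sialic acid-binding lectin, measured 12.4 to 17 CPM in the sham mice and 8.34 to 11.5 CPM in the vehicle mice, lower without overlap (log2 fold change -0.49 ± 0.19 SE, edgeR adjusted p = 0.29). Csf1r, the receptor on which microglia depend, gave a log2 fold change of -0.18 ± 0.15 and Tmem119 gave 0.06 ± 0.27 (SE). The summed CPM of the list was 2384 to 2671 in the sham mice and 1965 to 2707 in the vehicle mice, with vehicle mice 1 and 4 below all sham mice. The sum is dominated by a few abundant genes. Among other genes of myeloid cells, Fcgr3, an Fc receptor, rose from 16.9 to 20.1 CPM to 23.7 to 38.9 CPM (log2 fold change 0.82 ± 0.18 SE, edgeR adjusted p = 0.0432), and Tlr7, a receptor for single-stranded RNA, measured 0.132, 0.446, 0.543 and 0 CPM in the sham mice and 3.37, 1.3, 1.87 and 1.61 CPM in the vehicle mice (log2 fold change 2.85 ± 0.60 SE, edgeR adjusted p = 0.0328). Tlr7 had passed the filter through the vehicle mice alone. Fcgr3 and Tlr7 belong to none of the lists, were named because they rose and are no test of myeloid cells. Over the fits that dropped a mouse, the call held in 2 of 8 for Fcgr3 (adjusted p up to 0.155, without sham mouse 1) and in 2 of 8 for Tlr7 (adjusted p up to 0.134, without sham mouse 1).

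**Figure D3:**
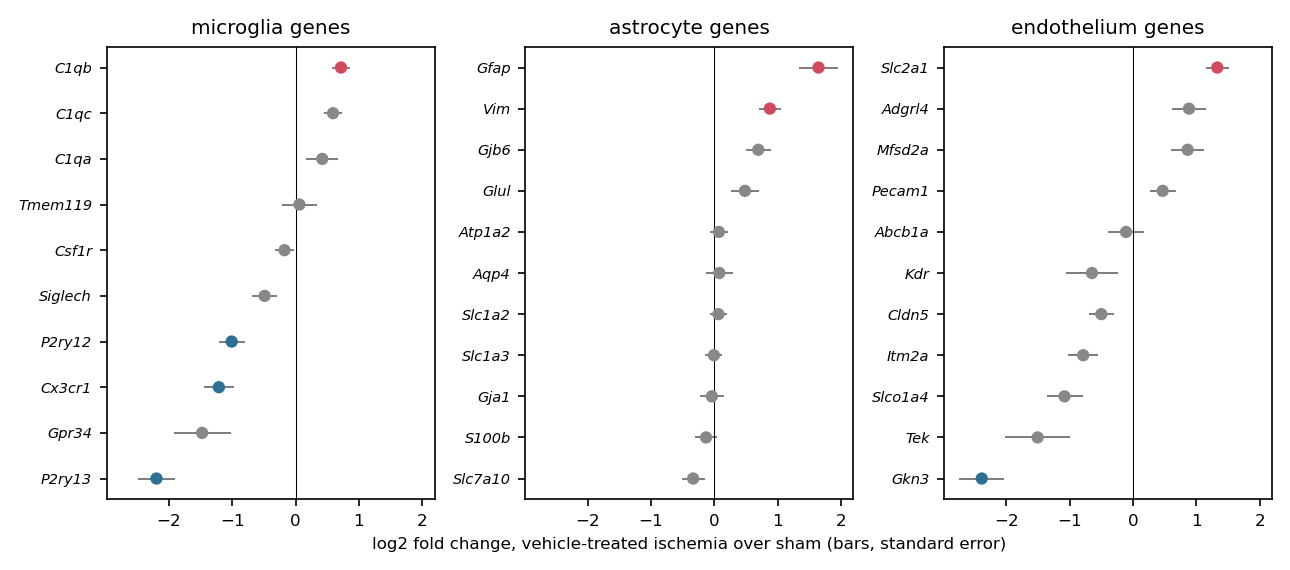
Log2 fold change of vehicle-treated ischemia over sham (x axis) with its standard error (bars) for 10 genes of microglia and 11 each of astrocytes and endothelium (y axis), red for genes called higher, blue for genes called lower and grey for genes not called. Receptor genes of microglia (P2ry13 at -2.19) and C1qb (0.72) lie on opposite sides of 0, Gfap and Vim lie above the homeostatic astrocyte genes, and Gkn3 (-2.39) and Slc2a1 (1.33) mark the ends of the endothelial genes.

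Leukocyte markers were low in level. Of 26 neutrophil and monocyte genes 9 passed the filter, of which 4 (S100a8, S100a9, Cd14 and Il1r2) rose and none fell, and 17, among them Ly6g, Ngp, Camp and Ccr2, did not. Il1r2 had passed through the vehicle mice alone. The summed CPM of the 9 genes was 15.8 to 23.1 in the sham mice and 40.3, 127, 169 and 45.0 in vehicle mice 1 to 4. S100a8, a calprotectin subunit that neutrophils hold in bulk, measured 1.05, 0.446, 0.815 and 1.23 CPM in the sham mice and 6.09, 26.2, 36.1 and 5.72 CPM in the vehicle mice (log2 fold change 4.40 ± 0.65 SE, edgeR adjusted p = 0.0036). S100a9, the other subunit, measured 1.19, 0, 0 and 0.247 CPM in the sham mice and 5.15, 20.2, 29.6 and 2.2 CPM in the vehicle mice (log2 fold change 5.34 ± 0.95 SE, edgeR adjusted p = 0.0143). Cd14, the lipopolysaccharide co-receptor of monocytes and activated microglia, measured 2.11, 2.45, 2.31 and 1.97 CPM in the sham mice and 7.87, 39.1, 61.1 and 18.2 CPM in the vehicle mice (log2 fold change 3.85 ± 0.54 SE, edgeR adjusted p = 0.00243). Vehicle mice 2 and 3 had the highest values of each. Lyz2, the lysozyme of myeloid cells, measured 5.27, 6.02, 3.8 and 5.43 CPM in the sham mice and 3.75, 13, 14.1 and 6.6 CPM in the vehicle mice (edgeR adjusted p = 0.31). When each mouse was left out in turn, the call held in all 8 for S100a8 and Cd14 and in 5 of 8 for S100a9 (adjusted p up to 0.0634, without sham mouse 2). 

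Of the risen genes outside that list, 4 that leukocytes are known to express were chosen after their values were seen and are no test of these cells. Ptprc, the pan-leukocyte antigen CD45, measured 0.132, 0.111, 0 and 0.37 CPM in the sham mice and 2.34, 2.07, 2.86 and 1.76 CPM in the vehicle mice (log2 fold change 3.77 ± 0.53 SE, edgeR adjusted p = 0.00252). Itgad, the integrin alpha D of macrophages, measured 0.264, 0.223, 0.272 and 0.617 CPM in the sham mice and 8.71, 2.07, 2.74 and 4.55 CPM in the vehicle mice (log2 fold change 3.71 ± 0.56 SE, edgeR adjusted p = 0.00412), highest in vehicle mouse 1. Lilrb4a, an inhibitory receptor of myeloid cells, had 1 count in the sham mice together and 60 in the vehicle mice, a ratio of 57.8 with a 95% counting interval of 9.98 to 2320 (edgeR adjusted p = 0.00244). Pglyrp1, a peptidoglycan-binding protein stored in neutrophil granules, measured 2.37, 3.46, 2.72 and 3.33 CPM in the sham mice and 7.77, 6.6, 4.48 and 12 CPM in the vehicle mice (log2 fold change 1.40 ± 0.31 SE, edgeR adjusted p = 0.0459). Ptprc, Itgad and Lilrb4a passed the filter through the vehicle mice alone. Which cells carried these transcripts was not tested. In the edgeR fits without 1 mouse, the call held in all 8 for Ptprc, Itgad and Lilrb4a and in 1 of 8 for Pglyrp1 (adjusted p up to 0.155, without sham mouse 1).

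Of 25 endothelial genes Slc2a1 rose, Gkn3 fell and the median log2 fold change was -0.11. Gkn3, a gene of arterial endothelium in the brain, measured 3.82, 5.46, 4.35 and 3.58 CPM in the sham mice and 0.468, 1.3, 0.871 and 0.587 CPM in the vehicle mice (log2 fold change -2.39 ± 0.36 SE, edgeR adjusted p = 0.00398). Slco1a4, an organic anion transporter, measured 31.9, 22.2, 36.5 and 31.2 CPM in the sham mice and 7.77, 23.3, 13.1 and 12 CPM in the vehicle mice (edgeR adjusted p = 0.0989), Itm2a measured 53.9 to 63.4 CPM in the sham mice and 19.7 to 50.1 CPM in the vehicle mice and Tek, the angiopoietin receptor, 2.34 to 4.07 CPM in the sham mice and 0.124 to 2.2 CPM in the vehicle mice (edgeR adjusted p = 0.159 and 0.215). Cldn5, the claudin of the tight junctions, measured 24.7, 27.4, 20.6 and 22.7 CPM in the sham mice and 14, 22.3, 15.9 and 13.6 CPM in the vehicle mice (log2 fold change -0.50 ± 0.20 SE, edgeR adjusted p = 0.279). Mfsd2a and Adgrl4 were higher without overlap, with log2 fold changes of 0.86 and 0.88 (edgeR adjusted p = 0.164 and 0.164). By the unadjusted p, 3 genes of the list were higher and 5 lower, which leaves no single direction. Leaving out 1 mouse at a time, the call held in all 8 for Gkn3. For the list as a whole, the fallen genes were 3 without vehicle mouse 2, 2 with DESeq2 and 2 with limma voom.

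Among 16 genes of endothelial activation and leukocyte adhesion, 4 rose, none fell and the median log2 fold change was 0.87. Apold1, an early gene of endothelium, measured 0.396, 0.78, 1.22 and 1.11 CPM in the sham mice and 2.06, 9.32, 8.09 and 1.91 CPM in the vehicle mice (log2 fold change 2.62 ± 0.57 SE, edgeR adjusted p = 0.0429). Adamts1, a matrix protease, measured 1.32, 1.9, 1.09 and 1.11 CPM in the sham mice and 3.28, 7.9, 14.6 and 3.96 CPM in the vehicle mice (log2 fold change 2.46 ± 0.47 SE, edgeR adjusted p = 0.021). Angptl4, a lipase inhibitor induced by hypoxia, fasting and glucocorticoids, measured 1.32, 3.23, 0.815 and 1.23 CPM in the sham mice and 10.9, 4.79, 6.85 and 15.6 CPM in the vehicle mice (log2 fold change 2.51 ± 0.45 SE, edgeR adjusted p = 0.0145). Angpt2, the antagonist of Tek, measured 0.791, 0.446, 0.543 and 1.73 CPM in the sham mice and 3.28, 1.81, 3.11 and 5.58 CPM in the vehicle mice, without overlap (edgeR adjusted p = 0.0609). Sele and Selp, the endothelial selectins, did not pass the filter. Across the 8 fits with a mouse removed, the call held in 5 of 8 for Angptl4 (adjusted p up to 0.0636, without sham mouse 1), in 4 of 8 for Adamts1 (adjusted p up to 0.0876, without sham mouse 3) and in 2 of 8 for Apold1 (adjusted p up to 0.147, without sham mouse 1). The list count of risen genes came to 0 without sham mouse 1 or 3.

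Plasminogen activators, matrix proteases and their inhibitors gave 4 risen of 19, Timp1 and Adamts1 of the lists above and a pair of the plasminogen system, and Timp1 had passed the filter through the vehicle mice alone. Plat, tissue plasminogen activator, measured 6.33, 5.46, 6.65 and 8.63 CPM in the sham mice and 11.9, 16.8, 21.7 and 17 CPM in the vehicle mice (log2 fold change 1.35 ± 0.23 SE, edgeR adjusted p = 0.0104). Plaur, the receptor of urokinase, measured 0.791, 1.9, 1.77 and 1.36 CPM in the sham mice and 4.96, 12.2, 14.2 and 3.23 CPM in the vehicle mice (log2 fold change 2.58 ± 0.47 SE, edgeR adjusted p = 0.0157). Mmp9 and Mmp3, the metalloproteinases most often measured after stroke, did not pass the filter. Timp3 measured 40.7 to 56.4 CPM in the sham mice and 57.1 to 96.1 CPM in the vehicle mice, without overlap (edgeR adjusted p = 0.0793). Col4a1, a chain of basement membrane collagen, rose and measured 5.54, 3.9, 4.07 and 3.21 CPM in the sham mice and 17.7, 10.1, 11.5 and 10.4 CPM in the vehicle mice (log2 fold change 1.62 ± 0.26 SE, edgeR adjusted p = 0.00599). With any 1 mouse removed, the call held in all 8 for Col4a1, in 6 of 8 for Plat (adjusted p up to 0.0527, without sham mouse 3) and in 4 of 8 for Plaur (adjusted p up to 0.0672, without sham mouse 4). The count of risen genes in the list was 1 without sham mouse 2 or 3.

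No gene of pericytes and smooth muscle (13 tested, median log2 fold change -0.25) or of meninges and fibroblasts (12 tested) was called by edgeR with all 8 mice, and 1 gene of the meningeal list was called higher with DESeq2, with limma voom and without vehicle mouse 1. At an unadjusted p under 0.05 and the same fold, 1 pericyte or smooth muscle gene was higher and 1 lower, and 2 meningeal genes were higher. Mylk, the myosin kinase, was higher and Myh11, smooth muscle myosin, lower without overlap, with log2 fold changes of 0.81 and -0.80 (edgeR adjusted p = 0.165 and 0.22). The summed CPM of 5 red blood cell genes was 560 to 633 in the sham mice and 333, 500, 416 and 439 in the vehicle mice. The 4 globin genes were lower in each vehicle mouse than in each sham mouse, with log2 fold changes of -0.62, -0.45, -0.44 and -0.39 for Hbb-bt, Hba-a2, Hba-a1 and Hbb-bs, and none was called (edgeR adjusted p = 0.075 to 0.253), while DESeq2 and limma voom each called 1 gene of the list lower. They are near-identical pairs and vary together, so that their values are not separate measurements. How far blood in the tissue moved with the other results was not tested.

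Neuronal genes showed no called member in most lists. Of 24 genes of excitatory neurons, 24 of interneurons, 23 of striatal projection neurons, 35 glutamate and GABA receptor subunits, 49 voltage-gated channels, 34 presynaptic genes and 40 receptors for monoamines and peptides, none was called, and the medians lay between -0.23 and 0.03. By the unadjusted p, 5 entries of these lists were higher and 5 lower. DESeq2 called 2 genes of excitatory neurons lower, and limma voom, the fit with no filter and the fit without vehicle mouse 4 each called 1. Among the channel genes 2 were called lower without vehicle mouse 1 and 1 with limma voom. Neurod1, a factor of young and cortical neurons, measured 8.97, 5.13, 5.98 and 6.91 CPM in the sham mice and 2.62, 2.2, 2.49 and 4.25 CPM in the vehicle mice (log2 fold change -1.19 ± 0.28 SE, edgeR adjusted p = 0.0599). Npy5r, a neuropeptide Y receptor, measured 2.11, 2.34, 2.72 and 2.34 CPM in the sham mice and 0.749, 1.3, 0.622 and 1.32 CPM in the vehicle mice (log2 fold change -1.23 ± 0.34 SE, edgeR adjusted p = 0.123). Both were lower without overlap, and their adjusted p missed the threshold. Kcnj6, a potassium channel subunit, was higher without overlap, at 1.71, 2.12, 1.49 and 2.59 CPM in the sham mice and 4.31, 3.76, 5.35 and 2.93 CPM in the vehicle mice (log2 fold change 1.07 ± 0.30 SE, edgeR adjusted p = 0.123). Agrp, a peptide of hypothalamic neurons, was the called exception among the region markers, at 7.12, 5.8, 6.52 and 5.55 CPM in the sham mice and 19.9, 11.1, 8.84 and 19.4 CPM in the vehicle mice (log2 fold change 1.29 ± 0.27 SE, edgeR adjusted p = 0.0361). Over the fits that dropped a mouse, the call held in 2 of 8 for Agrp (adjusted p up to 0.122, without sham mouse 4).

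The striatal genes varied between mice of the same group. The median coefficient of variation of the list was 27.7% among sham mice and 62.3% among vehicle mice. Drd2, the dopamine receptor of the indirect pathway, measured 6.07, 6.8, 2.17 and 9.37 CPM in the sham mice and 5.62, 0.648, 7.34 and 1.76 CPM in the vehicle mice, and Adora2a, the adenosine receptor of the same neurons, measured 19.8, 29, 13.4 and 42.6 CPM in the sham mice and 13.8, 7.12, 29.5 and 10.4 CPM in the vehicle mice (edgeR adjusted p = 0.687 and 0.455). Vehicle mice 1 and 3 had more of Drd2 than vehicle mice 2 and 4, and the sham mice also differed. How much striatum each sample held is not given in the labels, and its part in these values was not tested.

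No gene of oligodendrocytes (24 tested) or of their precursors (13 tested) was called by edgeR with all 8 mice, and 1 precursor gene was called lower with DESeq2 and without vehicle mouse 4. With the unadjusted p, 2 genes of oligodendrocytes were lower, and of the precursor genes 1 was higher and 2 were lower. Mbp, the myelin basic protein, measured 9134, 8315, 7621 and 5567 CPM in the sham mice and 7674, 8361, 7115 and 4409.7 CPM in the vehicle mice (log2 fold change -0.12 ± 0.19 SE, edgeR adjusted p = 0.844). Gpr37 and Gjb1, a receptor and connexin 32 of myelinating cells, were lower without overlap, with log2 fold changes of -0.73 ± 0.22 and -0.98 ± 0.30 (SE; edgeR adjusted p = 0.163 and 0.169). Gpr17, a receptor of committed precursors, measured 7.78, 7.47, 7.33 and 7.28 CPM in the sham mice and 2.34, 1.3, 3.98 and 5.58 CPM in the vehicle mice, lower without overlap (log2 fold change -1.16 ± 0.34 SE, edgeR adjusted p = 0.149).

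**Figure D4:**
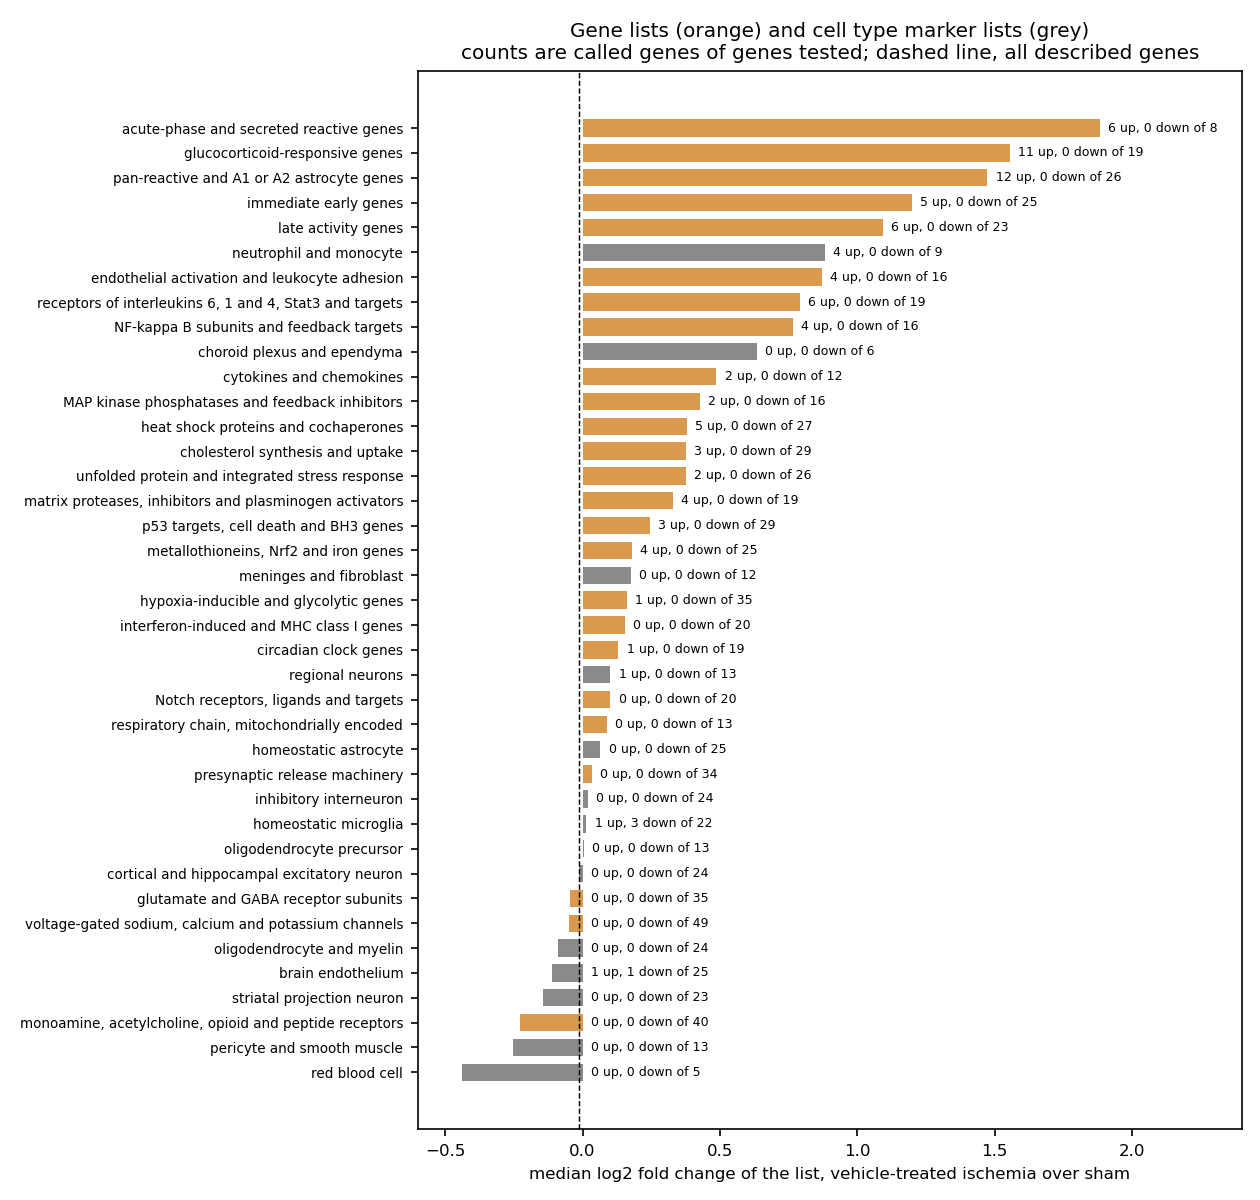
Median log2 fold change of each gene list (x axis) for the 39 lists (y axis, gene lists in orange and cell type marker lists in grey), with the number of called genes of the genes tested beside each bar and the median of all described genes as a dashed line. Acute-phase (1.88), glucocorticoid-responsive (1.56) and study astrocyte genes (1.47) have the longest bars, and the neuronal, oligodendrocyte and homeostatic glial lists lie near 0.

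Of 29 cholesterol genes 3 rose, none fell and the median log2 fold change was 0.38. Hmgcs1, an early enzyme of the mevalonate pathway, measured 242, 241, 229.5 and 238 CPM in the sham mice and 379, 319.8, 430.0 and 304 CPM in the vehicle mice (log2 fold change 0.63 ± 0.13 SE, edgeR adjusted p = 0.0295). Pmvk, phosphomevalonate kinase, measured 99.8, 97.9, 102 and 85.3 CPM in the sham mice and 182, 132, 167 and 145 CPM in the vehicle mice (log2 fold change 0.73 ± 0.14 SE, edgeR adjusted p = 0.0176), and Mvd, the next enzyme of the pathway, measured 14.2, 13.7, 13.4 and 13.9 CPM in the sham mice and 30.9, 22, 32.6 and 18.2 CPM in the vehicle mice (log2 fold change 0.94 ± 0.20 SE, edgeR adjusted p = 0.035). The groups did not overlap in these genes. Interferon-induced and MHC class I genes (20 tested), mitochondrially encoded genes (13 tested) and Notch genes (20 tested) held no called gene in edgeR with all 8 mice, and their medians were 0.15, 0.09 and 0.10, while by the unadjusted p 3 interferon-induced or MHC genes were higher and 1 Notch gene was lower. An interferon-induced or MHC class I gene (1 of 20) was called higher with DESeq2, with limma voom and without vehicle mouse 1. When each mouse was left out in turn, the call held in 3 of 8 for Hmgcs1 (adjusted p up to 0.117, without sham mouse 3), in 3 of 8 for Pmvk (adjusted p up to 0.0833, without sham mouse 4) and in 3 of 8 for Mvd (adjusted p up to 0.125, without sham mouse 3). The risen genes of the list numbered 0 without any 1 of the sham mice or vehicle mouse 3.

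Among the genes with the largest rise and no overlap, several belong to no list. Depp1, a target of FOXO factors and progesterone, measured 0.527, 0, 0 and 1.23 CPM in the sham mice and 9.37, 18.4, 27.5 and 10.6 CPM in the vehicle mice (log2 fold change 5.21 ± 0.65 SE, edgeR adjusted p = 0.000958). Tmem252, a membrane protein, measured 0.132, 0.669, 0.815 and 1.6 CPM in the sham mice and 10.8, 31.1, 37 and 13.5 CPM in the vehicle mice (log2 fold change 4.83 ± 0.54 SE, edgeR adjusted p = 0.000348). Ctla2a, a cathepsin L inhibitor found in the placenta and endothelium, measured 22.8, 21.5, 18.2 and 26.9 CPM in the sham mice and 168, 231, 318 and 341 CPM in the vehicle mice (log2 fold change 3.60 ± 0.23 SE, edgeR adjusted p = 9.28e-06). Its relative Ctla2b measured 0.272 to 0.791 CPM in the sham mice and 2.06 to 3.5 CPM in the vehicle mice (log2 fold change 2.44 ± 0.40 SE, edgeR adjusted p = 0.00726), had passed the filter through the vehicle mice alone, and reads may have been split between the pair. The row named Olfr1033, an olfactory receptor gene of a family of similar sequences, measured 1.58, 1.9, 2.72 and 1.97 CPM in the sham mice and 19.8, 26.4, 50.7 and 44.9 CPM in the vehicle mice (log2 fold change 4.14 ± 0.33 SE, edgeR adjusted p = 2.04e-05). Each of these was above the sham range in all 4 vehicle mice. In the edgeR fits without 1 mouse, the call held in all 8 for Depp1, Tmem252, Ctla2a, Ctla2b and Olfr1033.

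The fallen genes were mostly low in level. Adh1, an alcohol and retinol dehydrogenase, measured 2.24, 3.01, 2.99 and 1.97 CPM in the sham mice and 0, 0.648, 0.124 and 0 CPM in the vehicle mice (log2 fold change -3.66 ± 0.66 SE, edgeR adjusted p = 0.0147). Ranbp3l, a nuclear export factor of SMAD proteins, measured 2.64, 3.01, 1.9 and 3.58 CPM in the sham mice and 0.562, 1.04, 0.498 and 1.03 CPM in the vehicle mice (log2 fold change -1.81 ± 0.37 SE, edgeR adjusted p = 0.0295). Ptch1, the hedgehog receptor and a target of the same pathway, measured 11.7, 15.2, 10.7 and 13.3 CPM in the sham mice and 4.78, 5.83, 5.23 and 4.69 CPM in the vehicle mice (log2 fold change -1.28 ± 0.21 SE, edgeR adjusted p = 0.00694). Cyp39a1, an oxysterol hydroxylase, measured 10.9, 19.4, 8.69 and 8.63 CPM in the sham mice and 3.75, 3.11, 4.73 and 3.08 CPM in the vehicle mice (log2 fold change -1.67 ± 0.30 SE, edgeR adjusted p = 0.0157). Notum, a secreted esterase that inactivates Wnt proteins, measured 7.38, 3.12, 6.52 and 5.67 CPM in the sham mice and 1.87, 2.07, 2.24 and 0.587 CPM in the vehicle mice (log2 fold change -1.67 ± 0.37 SE, edgeR adjusted p = 0.0477). Rfx3, a factor of ciliated cells, measured 2.9, 2.34, 4.07 and 6.04 CPM in the sham mice and 1.22, 0.907, 0.622 and 1.61 CPM in the vehicle mice (log2 fold change -1.77 ± 0.40 SE, edgeR adjusted p = 0.0475). None of their vehicle values reached a sham value. Gbp4, Serpinb1a, Lrif1, Ifrd2, Muc3a, Zfp619 and Vmn1r14 complete the 15 largest falls, with log2 fold changes of -1.68, -1.29, -1.32, -1.54, -2.23, -1.70 and -2.88. Vmn1r14 belongs to a vomeronasal receptor family of similar sequences and its row is uncertain. Adh1, Muc3a, Zfp619 and Vmn1r14 had passed the filter through the sham mice alone. Leaving out 1 mouse at a time, the call held in all 8 for Ptch1, in 7 of 8 for Cyp39a1 (adjusted p up to 0.0511, without vehicle mouse 2) and in 5 of 8 for Adh1 (adjusted p up to 0.0602, without sham mouse 2). Significance and fold were kept in 3 of 8 for Ranbp3l (adjusted p up to 0.122, without sham mouse 4), in 1 of 8 for Notum (adjusted p up to 0.157, without sham mouse 1) and in 1 of 8 for Rfx3 (adjusted p up to 0.172, without sham mouse 4). Of the genes given by their fold change alone, Gbp4 kept its call in 6 of 8 fits, Lrif1 in 4, Muc3a and Vmn1r14 in 3 and Ifrd2 in 1, with adjusted p values of up to 0.0577, 0.0907, 0.0966, 0.0606 and 0.108, without sham mouse 3 for Lrif1 and Muc3a and without sham mouse 1 for the others. Serpinb1a and Zfp619 lost their call in each of the 8 fits, with adjusted p values of up to 0.157 (without sham mouse 1) and 0.172 (without sham mouse 4).

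The most abundant called genes include some that belong to none of the groups above. Fam107a, a stress-responsive actin-binding protein of astrocytes, measured 769, 603, 683 and 690.4 CPM in the sham mice and 1750.0, 1142, 1032 and 933 CPM in the vehicle mice (log2 fold change 0.86 ± 0.18 SE, edgeR adjusted p = 0.0294). Cd63, a tetraspanin of late endosomes, measured 186, 186, 210.4 and 191 CPM in the sham mice and 239, 289, 309 and 296 CPM in the vehicle mice (log2 fold change 0.59 ± 0.12 SE, edgeR adjusted p = 0.0295). Cotl1, an actin-binding protein of leukocytes and microglia, measured 107, 91.8, 128 and 115 CPM in the sham mice and 172, 150.4, 229.8 and 241 CPM in the vehicle mice (log2 fold change 0.88 ± 0.17 SE, edgeR adjusted p = 0.0201). Ociad2 measured 131, 126, 119.8 and 128 CPM in the sham mice and 251, 176, 183 and 163 CPM in the vehicle mice (log2 fold change 0.65 ± 0.15 SE, edgeR adjusted p = 0.0486). Among the fallen genes the most abundant were Chfr, a mitotic checkpoint ubiquitin ligase at 165, 158, 144 and 149 CPM in the sham mice and 60.9, 85.9, 103 and 99.2 CPM in the vehicle mice (log2 fold change -0.79 ± 0.16 SE, edgeR adjusted p = 0.0295), Mrpl36, a protein of the mitochondrial ribosome, at 72.4 to 92.1 CPM in the sham mice and 41.1 to 57.9 CPM in the vehicle mice (log2 fold change -0.74 ± 0.16 SE, edgeR adjusted p = 0.0367), and Dnmt3a, the de novo DNA methyltransferase, at 60.9 to 75.6 CPM in the sham mice and 34.6 to 45.3 CPM in the vehicle mice (log2 fold change -0.71 ± 0.15 SE, edgeR adjusted p = 0.0285). Narf, Prdm4, Cdh10 and Mettl21a fell, with log2 fold changes of -0.87, -0.85, -0.99 and -1.04. Mettl21a kept its call in 6 of 8 fits without 1 mouse (adjusted p up to 0.0557, without sham mouse 3), Narf in 3 (up to 0.104, without sham mouse 4), Cdh10 in 2 (up to 0.111, without sham mouse 1) and Prdm4 in 1 (up to 0.156, without sham mouse 4). Across the 8 fits with a mouse removed, the call held in 4 of 8 for Fam107a (adjusted p up to 0.106, without sham mouse 3), in 3 of 8 for Cotl1 (adjusted p up to 0.0824, without sham mouse 2) and in 3 of 8 for Chfr (adjusted p up to 0.103, without sham mouse 2). It held in 2 of 8 for Mrpl36 (adjusted p up to 0.132, without sham mouse 2), in 2 of 8 for Dnmt3a (adjusted p up to 0.109, without sham mouse 1) and in 1 of 8 for Cd63 (adjusted p up to 0.119, without sham mouse 1). The same limits were met in 1 of 8 for Ociad2 (adjusted p up to 0.172, without sham mouse 3).

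Across the 151 risen genes, the highest vehicle value was that of vehicle mouse 3 in 72 genes, mouse 4 in 29, mouse 1 in 27 and mouse 2 in 23. The lowest vehicle value was that of vehicle mouse 1 in 59 genes. The spread was wider in the vehicle mice for 96 of the 151 genes, with a median coefficient of variation of 32.3% against 24.7% in the sham mice. A pair of patterns recur in the values above, one in which vehicle mice 2 and 3 were far above vehicle mice 1 and 4 (Fosb, Ptgs2, Hspb1, S100a8) and one in which the 4 vehicle mice were alike (Sgk1, Nfkbia, Socs3, Cp, Lcn2). The genes named for each were chosen after their values were seen.

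**Figure D5:**
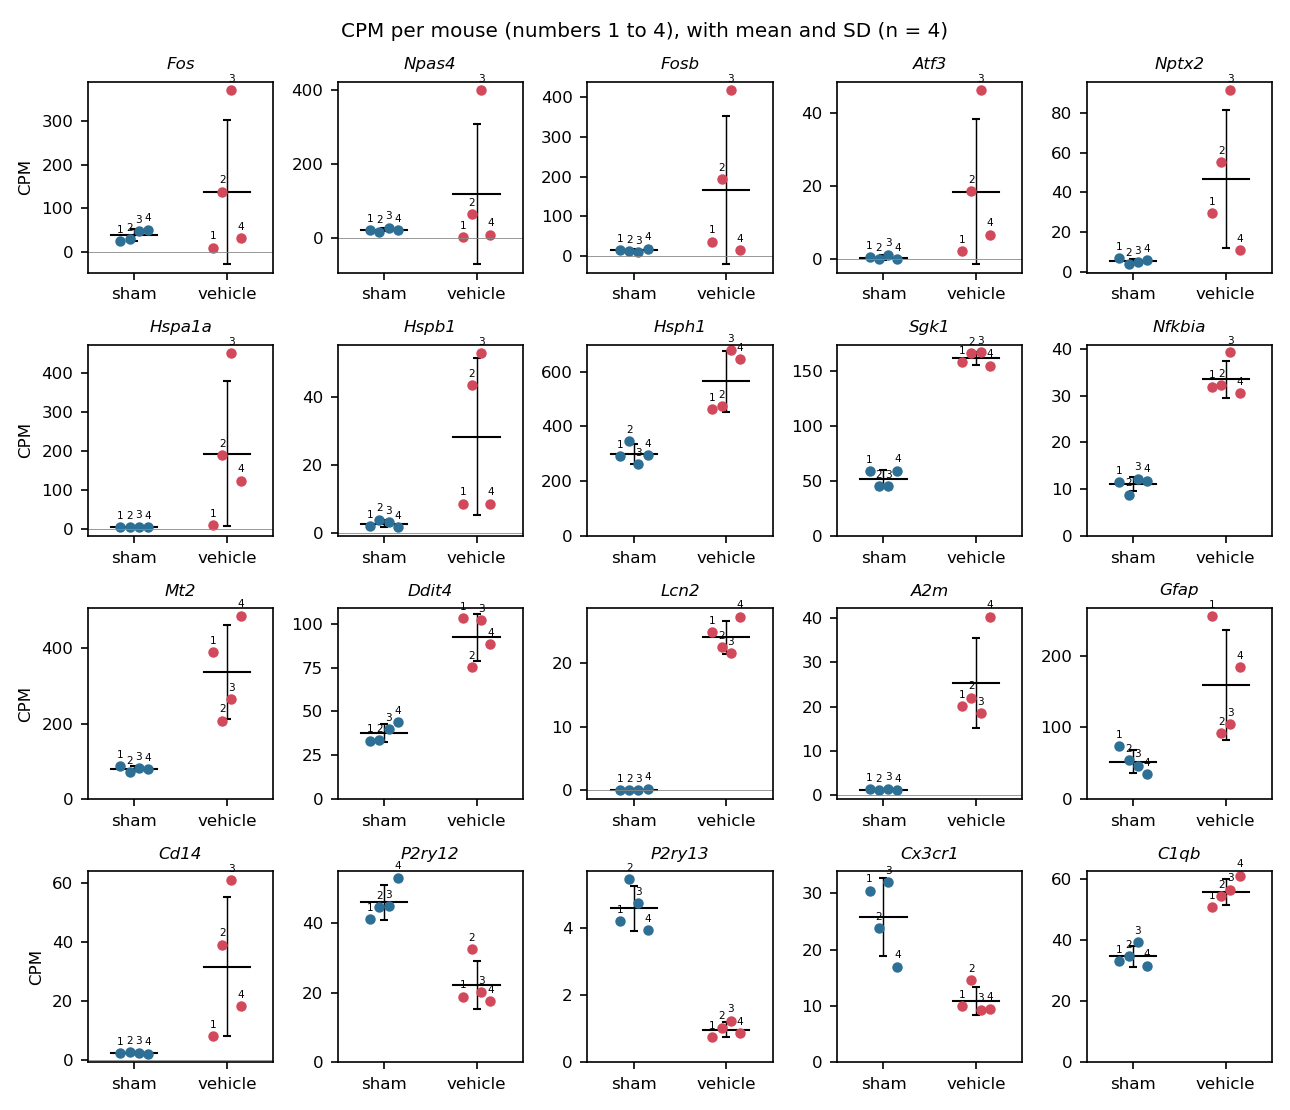
CPM (y axis, linear, a scale of its own in each panel) of 20 genes in the 4 sham mice (blue) and the 4 vehicle mice (red), with the mouse number at each point and the mean and SD of each group (n = 4) as lines. Fos, Npas4, Fosb and Nptx2 are spread widely over the vehicle mice, Sgk1 and Nfkbia lie in a narrow range above the sham mice, and P2ry12, P2ry13 and Cx3cr1 lie below them.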

How the data were processed

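The authors isolated brain RNA, amplified full-length cDNA by PCR and read it as long nanopore reads. Per their methods, low-quality and ribosomal reads were removed, full-length reads were mapped with minimap2 and isoforms were polished and compared with known transcripts. The deposited count values were used as given. The way reads were counted per gene is not given in the sources used here, and the submitters' processing notes name DESeq 1.10.1 and GRCm38. The deposited CPM values are the authors' counts divided by the total of each sample, and were recomputed from the counts. The authors' own columns of edgeR p-values and log2 fold changes were not used. The table had 4 lines without a gene, which were left out, and 27 symbols stored as dates were restored by identifier. No column of another series was present. Positions come from GENCODE vM21 (GRCm38), where 22022 of 22036 identifiers were found, and promoters from RefSeq.

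The 17019 rows that reached 1 CPM in 4 or more samples were fitted together in edgeR 4.0.16 (R 4.3.3; quasi-likelihood test, trimmed mean of M values (TMM) normalization, no covariates), and p-values were adjusted over all of them by Benjamini-Hochberg. Calls required an adjusted p under 0.05 and a 1.5-fold or larger change. The common biological coefficient of variation was 23.4%. Total counts of 6815920 to 10677224 set the precision. Intervals of count ratios are exact and cover counting error only, since reads carry no molecular identifiers. On simulated counts for this comparison (17097 rows), 44 of 100 genes with a made log2 fold change of 1 and 95 of 100 with 2 were called. The simulation gave every gene and both groups the same spread. In the data the spread differed between genes and was wider in the vehicle mice, so that these shares do not hold for genes of wider spread. Fits without 1 sample asked for 1 CPM in as many samples as the smaller group held. Alternatives used DESeq2 1.42.0 and limma 3.58.1, and figures Python 3.11.15 with matplotlib 3.10.9.

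The genes named are the 20 higher and 15 lower called genes with the largest log2 fold change and no overlap between groups, the called members of each list with up to 6 more of the smallest p, genes that define a cell type, and the 10 called genes with the largest mean CPM in each direction. Not all genes that this rule allows are described. The members and lists were chosen with earlier results of these data known.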

Additional observations from a re-analysis of the deposited data

Results flagged for a closer look

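Each group of 4 mice was searched for a mouse whose distance to the nearest other mouse, divided by the range of the group, passed the critical value of Dixon's test. Of 480 groups searched 29 passed, which is near the 1 in 20 groups that chance alone flags. A single flag is thus no evidence that a mouse differs, and the mice below are listed as a description. A gene counted in only 1 mouse of a group, as Lcn2 and Lilrb4a in the sham mice, is always flagged. The part of these mice in the results was not tested beyond leaving them out.

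Vehicle mouse 1 stood apart with high sums of CPM for voltage-gated channels (3028, against 1741 to 1865 in the other vehicle mice), presynaptic genes (12732, against 10028 to 10182), glutamate and GABA receptor subunits (2352, against 1840 to 1917) and oligodendrocyte precursor genes (480.1, against 276 to 302). It was also high for Klf9 (361.7 CPM) and Dbp (36.1 CPM) and low for Fas (3.56 CPM) and Prdx1 (201.1 CPM). Vehicle mouse 2 was high for Ttr (1817 CPM), for the sum of choroid plexus and ependyma genes (1892 CPM, against 31.7 to 34.0) and for Cx3cr1 (14.6 CPM, against 9.34 to 9.93). Vehicle mouse 3 was high for Npas4 (400.1 CPM), Dnajb1 (69.0 CPM), Pim3 (75.2 CPM) and the sum of clock genes (611 CPM), and low for mitochondrially encoded genes (0.909% of counts, 9088 CPM, against 19803 to 20595 CPM). Vehicle mouse 4 was high for A2m (40.2 CPM), the sum of acute-phase genes (140 CPM, against 93.4 to 100.6) and Vmn1r14 (0.587 CPM).

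Among the sham mice, mouse 1 was high for Hba-a1 (195 CPM). Mouse 2 was low for Adgrl4 (1.78 CPM), for Ccl2 (0 CPM) and for the sum of cell death genes (566 CPM), and high for Lilrb4a (0.111 CPM, a single count) and the sum of microglial genes (2671 CPM). Mouse 4 was high for Itgad (0.617 CPM) and Lcn2 (0.247 CPM), each at a few counts, and low for Gjb1 (8.51 CPM).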

How the results depend on the processing

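The counts of genes past the adjusted limits (151 higher and 25 lower) stayed within 1.5 times with RLE size factors, library totals, robust dispersion, no filter on low counts, a fit of Ensembl rows alone, all 12 samples in the fit and a fold limit of 2. They moved further with DESeq2 (271 higher and 58 lower, which share 151 and 24 genes with the calls above), with CPM of at least 1 in all 8 samples (93 and 13, since genes low in a group are then not tested) and, for lower genes alone, with limma voom and sample weights (43). With the replicate number as a block, 125 genes were higher and 16 lower, of which 116 and 13 are shared. The labels do not say that a number pairs samples, and across genes the deviations of same-numbered mice from their group means (log2 of CPM + 1) gave r = 0.164, -0.104, 0.006 and 0.127 for numbers 1 to 4, with 4 of 8 mice closest to their own number. The numbers were therefore not used as a pairing. Leaving out 1 mouse gave 67 to 239 higher and 5 to 57 lower genes. By unadjusted limits (655 and 363), leaving out 1 mouse gave 613 to 822 higher and 333 to 474 lower genes, and a fold limit of 2 gave 313 and 87. The median log2 fold change of the described genes lay between -0.048 and 0.002 in all settings, and no gene named in the text changed direction past a threshold. Of the 199 genes with values in the text, 31 lost their call with the block, 12 with all 12 samples in the fit, 7 with limma voom, 7 with library totals, 5 with robust dispersion, 4 with Ensembl rows alone, 2 with no filter and 1 with DESeq2. With CPM of at least 1 in all 8 samples 148 of them were tested and 8 lost their call. A call was gained by 21 with DESeq2 and 16 with limma voom. At these depths a level under 0.281 to 0.440 CPM, 3 counts, was not distinguished from 0.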

Other observations

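Genes that belong to no list and kept their call in all 8 fits without 1 mouse were looked at after the other results were known. Zfp36, the protein tristetraprolin that destabilizes cytokine mRNA, measured 2.64, 3.23, 5.43 and 1.85 CPM in the sham mice and 8.62, 29.4, 29 and 15.8 CPM in the vehicle mice (log2 fold change 2.69 ± 0.41 SE, edgeR adjusted p = 0.00467). Akap12, an anchor of protein kinase A in astrocytes and vessels, measured 15.4, 14.7, 10.3 and 8.02 CPM in the sham mice and 34.2, 69, 90.9 and 48.9 CPM in the vehicle mice (log2 fold change 2.35 ± 0.30 SE, edgeR adjusted p = 0.00117). Ch25h, which makes 25-hydroxycholesterol, measured 0.132, 0.223, 0.407 and 0.493 CPM in the sham mice and 1.69, 2.59, 4.48 and 2.49 CPM in the vehicle mice (log2 fold change 3.13 ± 0.48 SE, edgeR adjusted p = 0.0044). Gjb2, connexin 26, measured 1.32, 1.9, 1.77 and 1.23 CPM in the sham mice and 3.56, 8.68, 13.3 and 8.51 CPM in the vehicle mice (log2 fold change 2.46 ± 0.38 SE, edgeR adjusted p = 0.00519). Rasd1, a Ras-like protein that dexamethasone induces, measured 2.51, 1.78, 2.72 and 4.07 CPM in the sham mice and 10.6, 25.1, 18.5 and 16.9 CPM in the vehicle mice (log2 fold change 2.71 ± 0.31 SE, edgeR adjusted p = 0.000482). Ch25h had passed the filter through the vehicle mice alone. In these genes vehicle mouse 1 was the lowest of the vehicle group and was above the sham mice.

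A further 4 genes, also chosen after their values were seen and belonging to no common list, were higher in each vehicle mouse than in each sham mouse. Txnip, the thioredoxin-interacting protein that limits glucose uptake, measured 5.8, 3.57, 5.43 and 3.95 CPM in the sham mice and 12, 11.1, 12.9 and 12.6 CPM in the vehicle mice (log2 fold change 1.42 ± 0.21 SE, edgeR adjusted p = 0.00387). Ucp2, a mitochondrial uncoupling protein, measured 9.49, 7.25, 10.1 and 8.02 CPM in the sham mice and 24.7, 33, 22.9 and 39.5 CPM in the vehicle mice (log2 fold change 1.82 ± 0.21 SE, edgeR adjusted p = 0.000506). Pnpla2, adipose triglyceride lipase, measured 12, 10.8, 13.9 and 10.1 CPM in the sham mice and 28, 21.9, 15.9 and 23.3 CPM in the vehicle mice (log2 fold change 0.97 ± 0.20 SE, edgeR adjusted p = 0.0328). Hmgb2, a chromatin protein of the same family as the alarmin Hmgb1, measured 12.8, 13.9, 8.56 and 10.1 CPM in the sham mice and 36.9, 26.5, 35.2 and 51.9 CPM in the vehicle mice (log2 fold change 1.76 ± 0.23 SE, edgeR adjusted p = 0.00147). Pnpla2 kept its call in 2 of the 8 fits without 1 mouse, with an adjusted p of up to 0.122, without sham mouse 4.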
